A study of Homo sapiens with 12 samples.

Results

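The 92 cytosolic ribosomal protein genes by name were chosen from a table of 63187 genes measured in the established human breast adenocarcinoma line MDA-MB-231. They are the protein-coding genes, of 20065 in the table, whose symbols begin with RPL or RPS, without the S6 kinase genes, whose symbols begin with RPS6K. By role, 31 encode proteins of the small 40S subunit, 43 of the large 60S subunit and 3 of its stalk, which makes 77 core subunit genes. Another 11 are paralogues of core genes and 4 carry other names: 3 readthrough loci and RPS19BP1, whose product binds a ribosomal protein and is no subunit itself. FAU and RACK1 also encode parts of the ribosome but lie outside the name rule.

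The study asked how cells deprived of glucose, glutamine or both differ. Cells grown in a glucose-rich salt solution with 10% serum were moved for 36 h to 1 of 4 media with 3% serum: full (25 mM glucose and 4 mM glutamine), glucose-only (25 mM glucose without glutamine), glutamine-only (4 mM glutamine without glucose) and deficient (neither). No allele or agent other than the medium distinguished the groups, and all groups came from 1 line. Each medium had 3 total RNA libraries, lettered A, B and C and depleted of ribosomal RNA. The labels do not say whether the letters stand for separate cultures, so the p-values measure the spread between these libraries, which may be technical.

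Ribosomal proteins are made in near-equal amounts, are carried into the nucleus and are built onto ribosomal RNA in the nucleolus to form the 2 subunits. Their mRNAs are among the most abundant of a growing cell. Most begin with a 5′ terminal oligopyrimidine (TOP) tract, a C followed by further pyrimidines at the very start of the mRNA, through which LARP1 holds the mRNA back from translation and keeps it stable when nutrients are short and the kinase mTORC1 is inactive. An mRNA level is therefore no measure of how much ribosomal protein is made.

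The sequence at the annotated start is printed for members on which the results turn, because the TOP tract is the feature these genes are best known for sharing. Each sequence runs from 20 bases before the annotated start to 20 bases from it on (RefSeq, GRCh38.p14, strand of the gene), and capitals mark the pyrimidine run, defined as a C within 5 bases of the start followed by at least 4 pyrimidines. The genes are those with the largest difference between deficient and full medium, fixed examples of each subunit, members that did not pass the test, and paralogues.
RPL26 (chr17:8383174-8383213, minus strand): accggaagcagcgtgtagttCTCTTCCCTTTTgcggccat
RPL13 (chr16:89560662-89560701, plus strand): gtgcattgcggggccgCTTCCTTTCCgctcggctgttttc
RPS19 (chr19:41860235-41860274, plus strand): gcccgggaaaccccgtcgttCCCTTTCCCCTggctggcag
RPL24 (chr3:101686699-101686738, minus strand): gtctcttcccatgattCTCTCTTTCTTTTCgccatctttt
RPLP0 (chr12:120201092-120201131, minus strand): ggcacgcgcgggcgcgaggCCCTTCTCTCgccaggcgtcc
RPL11 (chr1:23691759-23691798, plus strand): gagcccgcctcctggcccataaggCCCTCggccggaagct
RPS6 (chr9:19380217-19380256, minus strand): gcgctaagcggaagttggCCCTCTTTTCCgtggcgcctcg
RPS10 (chr6:34426050-34426089, minus strand): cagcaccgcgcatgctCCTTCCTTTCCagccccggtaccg
RPS21 (chr20:62387083-62387122, plus strand): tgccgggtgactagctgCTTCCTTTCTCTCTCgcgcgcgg
RPL22 (chr1:6199576-6199615, minus strand): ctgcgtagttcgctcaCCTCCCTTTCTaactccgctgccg
RPL22L1 (chr3:170870176-170870215, minus strand): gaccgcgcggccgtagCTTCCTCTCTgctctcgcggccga
RPL36AL (chr14:49620607-49620646, minus strand): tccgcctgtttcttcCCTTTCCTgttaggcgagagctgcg
RPL26L1 (chr5:172958709-172958748, plus strand): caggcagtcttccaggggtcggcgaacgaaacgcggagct
RPS27L (chr15:63157458-63157497, minus strand): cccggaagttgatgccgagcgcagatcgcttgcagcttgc
RPL7L1 (chr6:42879596-42879635, plus strand): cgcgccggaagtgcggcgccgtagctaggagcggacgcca
RPSA2 (chr19:23762984-23763023, plus strand): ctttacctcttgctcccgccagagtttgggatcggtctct
Of 73 members with a RefSeq window, 62 were core genes and 53 of these (85.5%) had such a run at an annotated start, against 30.02% of 7128 tested protein-coding genes with a window. Among paralogues and other names it was 4 of 11 (36.4%). The run was present in RPL26 and RPL13, and equally in RPS10, RPS21, RPL22 and RPL36A, which did not pass the test between deficient and full medium. RPS29, the other core gene that did not pass, had no run. RPL26L1, RPS27L, RPL7L1 and RPSA2 had none. For the other 19 members no window was at hand. Over the whole 300-base window and both strands, CCGGAA, the core of sites for ETS-family factors, was found in 56.5% of core genes and 37.9% of tested protein-coding genes. CCATNTT, the core of YY1 sites, was found in 25.8% and 21.8%, and CACGTG, the E-box of MYC, in 6.45% and 13.4%. A match says only that these letters are there.

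The deposited values are numbers of reads divided by 1 size factor per library and are called normalized counts here. Libraries held 875033 to 1473587 recovered reads, and a single read was worth between 0.661 and 1.30 normalized counts. A gene was tested where at least 3 of the 12 libraries reached 10, which kept 9270 genes and 77 of the 92 members: 25 small subunit, 41 large subunit and 3 stalk genes, 7 paralogues and RPS19BP1. Log2 changes are differences of log2(normalized count + 1) with their standard error (SE), p-values are two-sided from limma-trend with Benjamini-Hochberg adjustment over all 9270 genes, and a gene is said to have risen or fallen where adjusted p was under 0.05. Means are given with the SD of 3 libraries. Of 19 markers of fibroblasts, blood, endothelium and fat, 17 stayed under 10 in every library; PECAM1 and KDR, of endothelium, reached at most 19.7 and 15.7. VIM and CD44, which this mesenchymal-like line is known to express, had means of 659 to 1012 and 385 to 672 across the media. Of the other markers listed for the line, KRT18 had means of 243 to 371, KRT8 of 65.3 to 157, KRT19 of 71.6 to 156 and EGFR of 189 to 673. KRT8 and KRT19 were lower in deficient than in full medium, while the other listed markers were higher. All comparisons share libraries, so the values of the members in one are not independent of those in another.

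The ribosomal protein genes took more of the protein-coding reads without glucose than with it. They took 4.15, 4.69 and 4.54% of all protein-coding reads in the full libraries A, B and C, and 4.49, 4.53 and 4.47% in the glucose-only libraries. The glutamine-only libraries gave 5.58, 5.85 and 5.85%, and the deficient ones 5.89, 6.35 and 6.51%. On this share all 6 libraries without glucose thus lay above all 6 with it. The separation did not hold for the share of all reads, with 2.68% in glutamine-only library A and 2.71% in full library C. Of all reads, the share was 2.47 ± 0.238% in full, 2.00 ± 0.125% in glucose-only, 2.95 ± 0.258% in glutamine-only and 2.96 ± 0.351% in deficient medium. Reads outside protein-coding genes differed as well: mitochondrial ribosomal RNA took 9.54 ± 0.939, 12.2 ± 1.09, 13.9 ± 0.325 and 16 ± 0.984% of reads in the same order, and its part in the results was not tested. In bulk RNA, more transcripts per cell and less of all other RNA cannot be told apart.

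**Figure D1:**
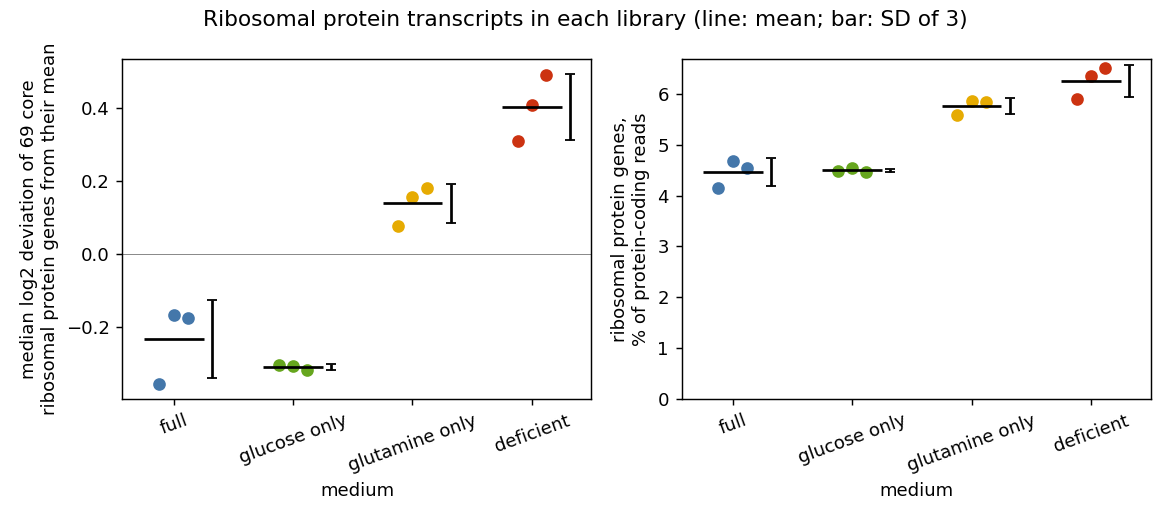
Each point is 1 library, coloured by medium, with the mean as a line and the SD of 3 libraries as a bar. The left panel gives the median log2 deviation of the 69 tested core ribosomal protein genes from their mean over 12 libraries, the right panel the share of protein-coding reads in all ribosomal protein genes (percent), which was 4.15 to 4.69% with glucose and 5.58 to 6.51% without.

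Gene by gene, 51 of the 77 tested members had all 6 libraries without glucose above all 6 with glucose, which 3.97% of all tested genes did. In 41 members all 3 deficient libraries lay above the other 9, against 16.7% of tested genes. With every library set to the same total of all genes these counts were 17 (against 2.27%) and 5 (against 7.84%), and with the same total of protein-coding genes 44 (against 2.75%) and 18 (against 10.8%). The mean was highest in the deficient medium for 67 members and lowest in the glucose-only medium for 46. The order deficient, glutamine-only, full, glucose-only held for 37 members, and the same order with the last 2 exchanged for 25.

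Between deficient and full medium, 68 of the 77 tested members rose, none fell and 9 did not pass, while 51.8% of all tested genes passed, 26.3% higher and 25.5% lower. The median log2 change of the members was 0.65, against 0.01 over all tested genes. In 65 members the 3 deficient libraries lay above the 3 full ones, which 29.1% of tested genes did, and in 2 members below, against 28.2%. By role, 22 of 25 small subunit genes (median 0.62), 39 of 41 large subunit genes (median 0.70) and all 3 stalk genes (median 0.54) rose.

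In the small subunit the largest rise was that of RPS19, which is mutated in Diamond-Blackfan anaemia and lies at chromosome 19, 41860255 to 41872925 on the plus strand (GRCh38.p14). RPS19 was read at 286, 362 and 289.9 in the full libraries A, B and C, 352, 355 and 407 in glucose-only, 374, 399 and 364 in glutamine-only and 521, 687 and 602 in deficient medium. The deficient libraries lay above all others, and the change against full medium was 0.95 ± 0.11 (adjusted p = 2.98e-08). RPS6, the protein that S6 kinases phosphorylate, is at chromosome 9, 19375715 to 19380236 on the minus strand. Normalized counts of RPS6 in libraries A, B and C were 466, 502 and 481 in deficient, 412, 437 and 411 in glutamine-only, 359, 333 and 348 in glucose-only and 285, 284 and 304 in full medium. No library of one medium overlapped another medium here, in the order deficient, glutamine-only, glucose-only, full, with 0.73 ± 0.09 (adjusted p = 9.28e-08). RPS3, which lines the channel where mRNA enters, gave 623 ± 39.3 in full, 601 ± 31.6 in glucose-only, 728 ± 18.2 in glutamine-only and 979 ± 53.2 in deficient medium, a change of 0.65 ± 0.09 (adjusted p = 1.07e-06). All 5 tested genes of the mRNA channel rose, with RPS28 at 0.84 ± 0.11 (adjusted p = 5.06e-07).

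In the large subunit RPL26 led. Its product sits beside the exit of the peptide tunnel and is the main target of the ubiquitin-like modifier UFM1, and the gene lies at chromosome 17, 8377516 to 8383193 on the minus strand. In libraries A, B and C, RPL26 stood at 270.4, 392 and 328 with both nutrients, 364, 399 and 404 with glucose alone, 441, 527 and 443 with glutamine alone and 592, 883 and 931 with neither. All deficient libraries were above all others, and the deficient medium exceeded the full one 2.40-fold, with 1.27 ± 0.13 (adjusted p = 6.32e-09). The 7 tested genes of the exit tunnel all rose (median 0.74). RPL13 was next at 0.99 ± 0.10 (adjusted p = 2.11e-09). RPL13 was read at 174, 196 and 159.6 in the full libraries A, B and C, 234, 221 and 213 in glucose-only, 306, 269 and 298 in glutamine-only and 368, 343 and 341 in deficient medium. The 4 media did not overlap in this gene. RPL18 stood at 0.99 ± 0.12 (adjusted p = 5.62e-08).

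RPL5 and RPL11 bring the 5S ribosomal RNA into the subunit, and when left over they bind MDM2. Normalized counts of RPL5 in libraries A, B and C were 978, 977 and 1022 in deficient, 767, 802 and 822 in glutamine-only, 614, 639 and 581 in glucose-only and 552, 590.3 and 587 in full medium. In libraries A, B and C, RPL11 stood at 556, 629 and 592 with both nutrients, 496, 463 and 526 with glucose alone, 653, 805 and 708 with glutamine alone and 842, 1067 and 1047 with neither. In both genes the deficient libraries were above all others, with 0.78 ± 0.09 (adjusted p = 3.08e-08) for RPL5 and 0.73 ± 0.11 (adjusted p = 1.43e-06) for RPL11. RPL10, which joins late and is needed for the peptide-joining centre, gave 271 ± 23.5 in full, 311 ± 37.9 in glucose-only, 449 ± 63.3 in glutamine-only and 440.1 ± 21.4 in deficient medium. Its deficient and glutamine-only libraries overlapped, and both lay above the other media (0.70 ± 0.11, adjusted p = 4.58e-06 between deficient and full). RPL3, near the same centre, gave 229.8 ± 7.61 in full, 214 ± 6.78 in glucose-only, 296 ± 24 in glutamine-only and 325 ± 15.1 in deficient medium, a change of 0.50 ± 0.10 (adjusted p = 8.11e-05).

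The stalk recruits the elongation factors. RPLP0 is its base protein. RPLP0 was read at 543, 586 and 571 in the full libraries A, B and C, 576, 616 and 553 in glucose-only, 738, 813 and 762 in glutamine-only and 937, 1013 and 1001 in deficient medium. The deficient libraries were above the glutamine-only ones, which were above the rest, and RPLP0 rose by 0.80 ± 0.09 (adjusted p = 3.08e-08). RPLP1 and RPLP2, the acidic proteins at the tip, rose by less, 0.54 ± 0.10 (adjusted p = 7.93e-05) and 0.45 ± 0.10 (adjusted p = 0.000434). Their deficient and glutamine-only libraries overlapped, with means of 881 ± 74.6 in deficient and 835 ± 44.4 in glutamine-only medium for RPLP1 and 772 ± 45.6 in deficient and 728 ± 48.1 in glutamine-only medium for RPLP2.

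Of the 9 members that did not pass, 5 were core genes. RPL22, an RNA-binding protein of the large subunit, was the 1 tested core gene with a negative change, lower in deficient than in full medium. Normalized counts of RPL22 in libraries A, B and C were 50.8, 42.3 and 53.6 in deficient, 52.3, 75.1 and 71.8 in glutamine-only, 49.4, 69.2 and 52.9 in glucose-only and 56.9, 67.7 and 62.4 in full medium. Its deficient libraries lay below the full ones, with -0.35 ± 0.16 (adjusted p = 0.0738). RPS10, a protein of the small subunit's head that is ubiquitinated on collided ribosomes, did not pass. In libraries A, B and C, RPS10 stood at 74.7, 119 and 98.2 with both nutrients, 71.1, 60.8 and 68.2 with glucose alone, 87.5, 84.8 and 77.4 with glutamine alone and 87.2, 109.9 and 102 with neither. The groups overlapped (0.05 ± 0.14, adjusted p = 0.773), and 39.4% of its annotated exon length is shared with the readthrough locus RPS10-NUDT3, which had no read. RPS21 was at 0.23 ± 0.11 (adjusted p = 0.0857), RPS29 at 0.24 ± 0.11 (adjusted p = 0.0591) and RPL36A at 0.62 ± 0.29 (adjusted p = 0.0699), with overlapping groups in each. The other 4 were RPS19BP1, at 0.51 ± 0.22 (adjusted p = 0.0577), and the paralogues RPL39L, RPL26L1 and RPSA2, described further on.

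**Figure D2:**
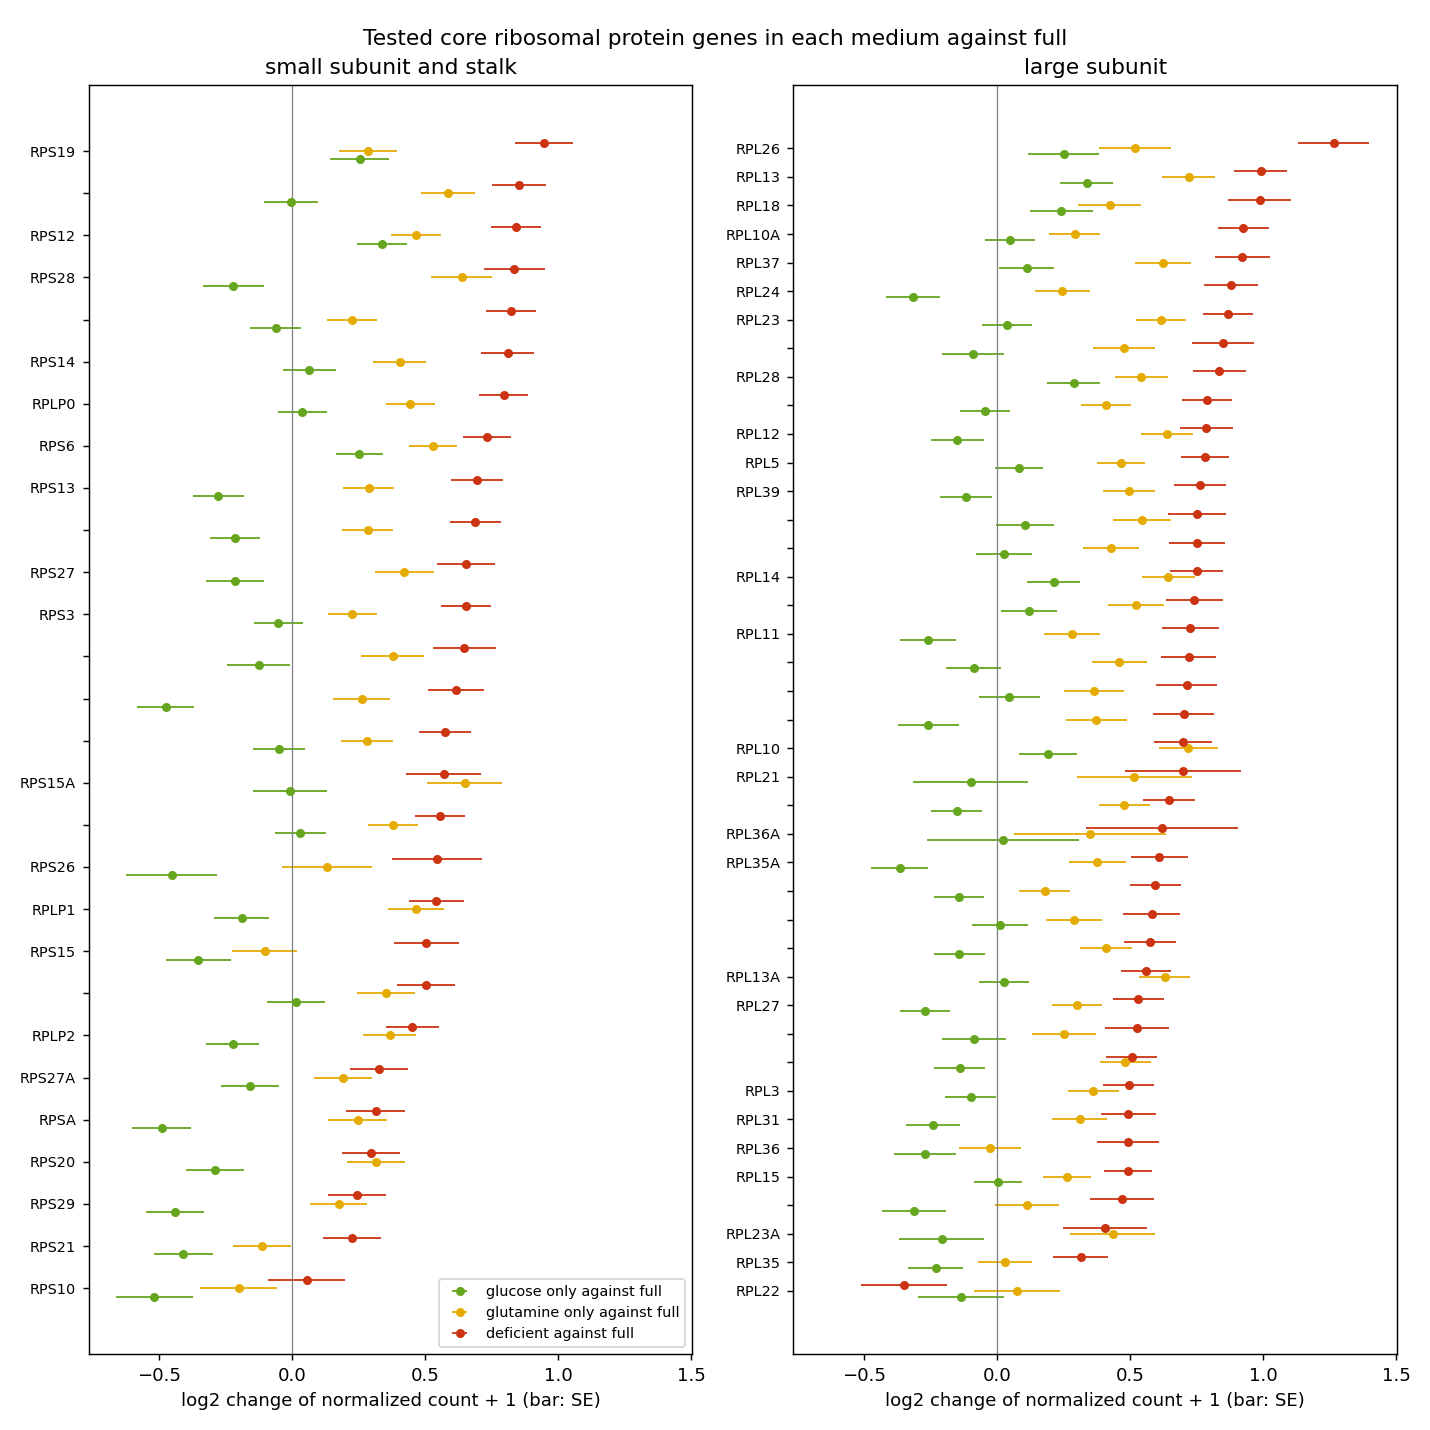
Log2 change of normalized count + 1 against full medium (horizontal axis, with the SE as a bar) for the 69 tested core genes, small subunit and stalk on the left, large subunit on the right, ordered by the change in deficient medium (red) and labelled where the gene is described in the text. Glucose-only (green) and glutamine-only (yellow) are beside it; red runs from -0.35 in RPL22 to 1.27 in RPL26, and green lies on both sides of 0.

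How large these rises are depends on what is held constant. With equal totals of all genes the median change of all tested genes between deficient and full medium became -0.37, that of the members 0.25, and 30 members rose and 3 fell (RPL22, RPL26L1 and RPL39L), against 12.6% and 40.7% of tested genes. The difference between the 2 medians was 0.63 as deposited and 0.62 with equal totals. RPS20, RPSA, RPS27A and RPL35, which rose as deposited (0.30, 0.31, 0.32 and 0.31), had changes of -0.11, -0.09, -0.08 and -0.09 there. With equal totals of protein-coding genes 62 members rose and 2 fell. The share of all tested genes that passed on this scaling was not determined, here or below.

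To ask which members departed from the family, each library was also scaled on the median of the tested core genes, a choice made after seeing the data. On that scale 18 of 77 members differed between deficient and full medium, while 63.0% of all tested genes did. The tested core genes themselves set this scale and are centred by it, so the difference between these shares is no result. RPL26 (0.63), RPL13 (0.35), RPL18 (0.35), RPS19 (0.31), RPL10A of the L1 stalk (0.29), RPL37 (0.29) and RPL24 (0.24) were higher than the family. RPL22 (-0.98), RPS10 (-0.58), RPS21 (-0.41), RPS29 (-0.39), RPS20 (-0.34), RPSA (-0.32), RPL35 (-0.32) and RPS27A (-0.31) were lower, and so were the paralogues RPL39L (-1.50), RPL26L1 (-1.23) and RPSA2 (-0.95). The values in brackets are log2 changes relative to the family.

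With glutamine alone against full medium, that is, without glucose, 50 members rose, none fell and 27 did not pass, while 22.5% of tested genes passed, 10.8% higher and 11.6% lower. The median of the members was 0.37, against -0.01 over all tested genes, and 57 members had no overlap and were higher, against 17.8% of tested genes. The largest changes among core genes were RPL13 at 0.72 ± 0.10 (adjusted p = 2.74e-06), RPL10 at 0.72 ± 0.11 (adjusted p = 1.17e-05), RPS15A at 0.65 ± 0.14 (adjusted p = 0.000966) and RPL14 at 0.64 ± 0.10 (adjusted p = 1.63e-05). RPS10 (-0.20), RPS21 (-0.11), RPS15 (-0.10) and RPL36 (-0.02) were the lowest core genes and did not pass, and neither did the paralogue RPL39L at -0.81. All 3 stalk genes rose, RPLP0 by 0.44, RPLP1 by 0.47 and RPLP2 by 0.37, as did RPL5 by 0.47, RPS6 by 0.53 and RPL3 by 0.36. RPL11 (0.28 ± 0.11, adjusted p = 0.0537), RPS3 (0.23 ± 0.09, adjusted p = 0.0814) and RPS19 (0.28 ± 0.11, adjusted p = 0.0609) did not pass, although in each the glutamine-only libraries lay above the full ones. With equal totals of all genes 22 members rose, against 6.79% of tested genes, and without full library A 32 rose and 1 fell.

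With glucose alone against full medium, that is, without glutamine, 4 members rose, 10 fell and 63 did not pass, while 22.9% of tested genes passed, 9.44% higher and 13.5% lower. The median was -0.10, against -0.03 over all tested genes. In 4 members the glucose-only libraries lay above the full ones and in 20 below, against 16.4% and 21.5% of tested genes. RPL13 (0.34), RPS12 (0.34), RPL28 (0.29) and RPS6 (0.25) rose. Those that fell included RPS10 (-0.52), RPSA (-0.49), RPS29 (-0.44), RPS21 (-0.41), RPL35A (-0.37), RPS15 (-0.35), RPL24 (-0.32), RPS13 (-0.28) and RPL27 (-0.27), and 7 of the 10 encode small subunit proteins. RPS26, also among the 4 lowest, missed the threshold at -0.45 ± 0.17 (adjusted p = 0.054), and so did RPS19 among the 4 highest at 0.25 ± 0.11 (adjusted p = 0.0968). RPS10 in glucose-only medium, with the values given above, had all 3 libraries below the full ones. The balance of directions was not stable: with equal totals of all genes none rose and 31 fell, against 4.27% and 23.2% of tested genes, with equal totals of protein-coding genes 7 rose and 5 fell, and DESeq2 on the recovered reads called 1 higher and 4 lower. Leaving out single libraries gave 8 members without glucose-only A, 9 without B, 9 without C, 8 without full B (5 higher and 3 lower) and 6 without full C.

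Glucose alone, compared with neither nutrient, went with lower levels of nearly the whole family. Against deficient medium, 71 of 77 members fell in glucose-only medium, none rose and 6 did not pass, while 43.2% of tested genes passed, 20.1% higher and 23.2% lower. The median was -0.70, against 0.00 over all tested genes, and in 70 members the groups did not overlap and glucose-only was lower, against 26.3% of tested genes. Among core genes RPL24, which bridges the 2 subunits, fell most, and is at chromosome 3, 101681091 to 101686718 on the minus strand. RPL24 was read at 255, 315 and 321 in the full libraries A, B and C, 235, 239.96 and 236 in glucose-only, 342, 357 and 352 in glutamine-only and 484, 555 and 599 in deficient medium. Its glucose-only libraries were the lowest and its deficient libraries the highest, with no overlap to any other medium, and the change was -1.20 ± 0.10 (adjusted p = 1.73e-10). RPS28 (-1.06 ± 0.11, adjusted p = 1.59e-08) and RPL26 (-1.02 ± 0.13, adjusted p = 5.93e-07) were also among the 4 lowest core genes. The paralogue RPL22L1 fell by more (-1.27 ± 0.24, adjusted p = 8.32e-05). The smallest falls among core genes were those of RPL15 (-0.49), RPS27A (-0.49) and RPS6 (-0.48), and RPL22 had a change of 0.21 ± 0.16 (adjusted p = 0.303). RPL22, RPL26L1, RPL36A, RPL39L, RPSA2 and RPS19BP1 were the 6 that did not pass. With equal totals of all genes 69 fell, against 15.1% of tested genes, and with equal totals of protein-coding genes 63 fell and 1 rose.

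Glutamine alone, compared with neither nutrient, gave a difference whose median changed sign with the scaling. In glutamine-only against deficient medium 38 members fell, 1 rose and 38 did not pass, while 41.5% of tested genes passed, 21.6% lower and 19.9% higher. The median of -0.27 (all tested genes -0.01) became 0.01 with equal totals of all genes (all tested genes 0.26), where 3 rose and 6 fell, against 30.5% and 10.1% of tested genes. In 42 members the glutamine-only libraries lay below the deficient ones and in 1 above, against 26.2% and 23.6% of tested genes. RPL26 at -0.75 ± 0.13 (adjusted p = 6.29e-05), RPS19 at -0.66 ± 0.11 (adjusted p = 1.96e-05), RPL10A at -0.63 ± 0.10 (adjusted p = 4.93e-06) and RPL24 at -0.63 ± 0.10 (adjusted p = 1.39e-05) were the lowest core genes. The paralogue RPL22L1 was lower, at -1.02 ± 0.24 (adjusted p = 0.00115). RPL22 alone rose, by 0.42 ± 0.16 (adjusted p = 0.0368), though 1 of its glutamine-only libraries, at 52.3, lay within the deficient range of 42.3 to 53.6. RPS15A (0.08), RPL13A (0.07) and RPL23A (0.03) were the next highest core genes and did not pass, and neither did the paralogue RPL26L1 at 0.59. Without glutamine-only library A 26 members passed, and without deficient library C 28.

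The 2 media with a single nutrient differed in 52 members, all lower in glucose-only than in glutamine-only medium, while 13.3% of tested genes passed, 5.05% higher and 8.26% lower. The median was -0.43, against 0.00 over all tested genes, and in 63 members the groups did not overlap, against 16.1% of tested genes. RPS28, at the mRNA exit channel, gave 142 ± 17.8 in full, 121 ± 12 in glucose-only, 219.9 ± 15.8 in glutamine-only and 253 ± 24.8 in deficient medium, with -0.86 ± 0.11 (adjusted p = 2.83e-06) between the 2. RPL12 of the stalk base (-0.79 ± 0.10, adjusted p = 1.14e-06) and RPL35A (-0.74 ± 0.11, adjusted p = 9.49e-06) were next. RPS19 (-0.03), RPS12 (-0.13), RPL18 (-0.18) and RPL22 (-0.21) were the core genes nearest to 0 and did not pass.

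Averaged over both states of glutamine, 70 of 77 members were lower with glucose than without and none were higher, while 38.9% of tested genes passed, 18.4% higher and 20.5% lower. The median was -0.56 (all tested genes 0.00), and with equal totals of all genes it was -0.41 with 64 members lower, against 12.9% of tested genes. RPS28 (-0.85 ± 0.08, adjusted p = 1.34e-09), RPL12 (-0.79 ± 0.07, adjusted p = 3.39e-10), RPL26 (-0.77 ± 0.10, adjusted p = 1.75e-07) and RPL23 (-0.72 ± 0.07, adjusted p = 9.05e-10) had the largest effects. RPL35 (-0.29) and RPS21 (-0.26) were lower by the least among core genes that passed. RPS10 (-0.19 ± 0.10, adjusted p = 0.154), RPL22 (0.07 ± 0.11, adjusted p = 0.67), RPL36A (-0.47 ± 0.20, adjusted p = 0.0636), RPS19BP1, RPL26L1, RPL39L and RPSA2 did not pass.

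Averaged over both states of glucose, 16 members were lower with glutamine than without and 1 was higher, while 38.1% of tested genes passed, 19.5% higher and 18.6% lower. With equal totals of all genes 27 were higher and 2 lower, against 35.1% and 7.41% of tested genes. The median was -0.09 as deposited and 0.16 with equal totals (all tested genes 0.00 and 0.24). RPL26 (-0.50 ± 0.10, adjusted p = 0.000133), RPS19 (-0.46 ± 0.08, adjusted p = 2.86e-05), RPL18 (-0.40 ± 0.08, adjusted p = 0.000349) and RPS12 (-0.36 ± 0.07, adjusted p = 9.7e-05) had the most negative values among core genes. RPSA, also known as the laminin receptor, was the 1 member higher with glutamine (0.21 ± 0.08, adjusted p = 0.0345), and RPL22 (0.28), RPS29 (0.19) and RPS20 (0.15) did not pass. Of the genes described above RPS6 (-0.23), RPL5 (-0.20), RPLP0 (-0.19) and RPS3 (-0.19) passed, and their effects were 0.02, 0.05, 0.06 and 0.06 with equal totals.

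**Figure D3:**
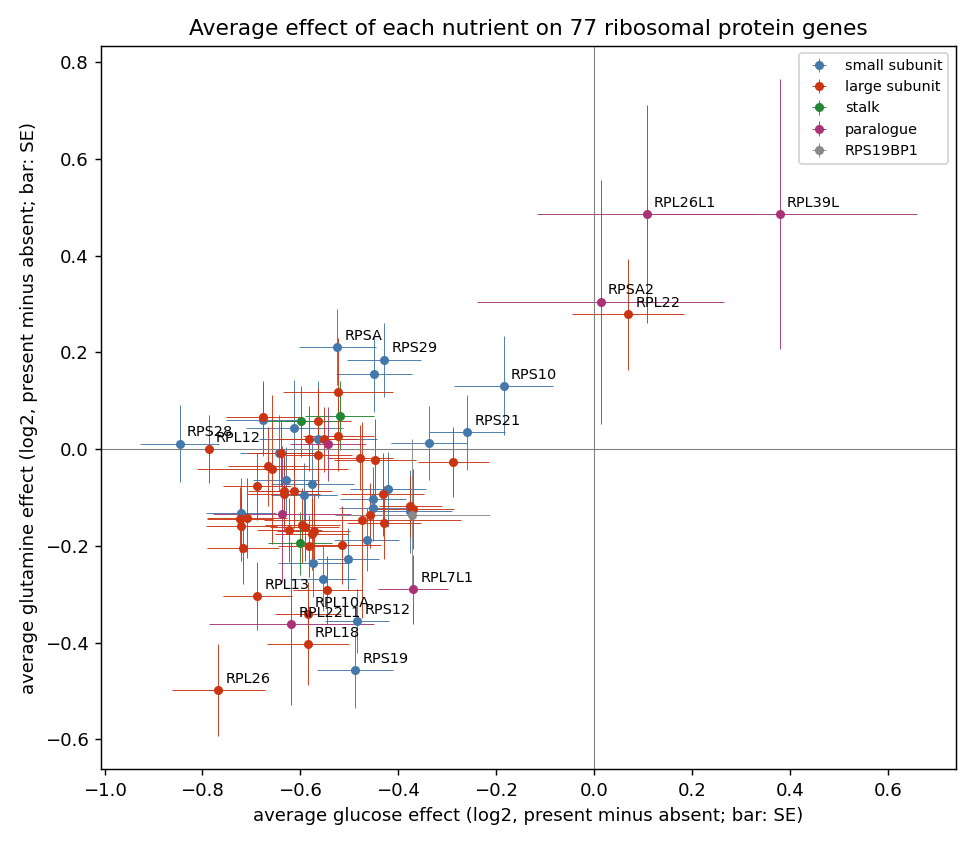
Each point is 1 of the 77 tested ribosomal protein genes, with the average effect of glucose on the horizontal axis and of glutamine on the vertical axis (log2, present minus absent; bars are SE), coloured by role. Most points lie at glucose effects of -0.85 to -0.19 and near 0 for glutamine, RPL26 is lowest on the vertical axis at -0.50, and RPL22 and 3 paralogues lie to the right of 0.

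The interaction asks whether the difference made by one nutrient depended on the other. It is the glutamine difference in glucose (full against glucose-only) less the same difference without glucose (glutamine-only against deficient). It was positive in 28 members and negative in none, with 49 not passing, while 26.5% of tested genes passed and 15.5% were positive. The median was 0.32, against 0.06 over all tested genes. Given the negative average for glucose, a positive value means a larger negative difference with glucose where glutamine was absent. RPS15 (0.96 ± 0.17, adjusted p = 0.000111), RPL24 (0.95 ± 0.14, adjusted p = 1.31e-05) and RPS26 (0.87 ± 0.24, adjusted p = 0.00798) were highest among core genes, and 12 of 25 small subunit genes, 14 of 41 large subunit genes and no stalk gene passed. Normalized counts of RPS15 in libraries A, B and C were 149.7, 155 and 152 in deficient, 105, 105 and 89.5 in glutamine-only, 87.9, 72.3 and 91.7 in glucose-only and 96.5, 106 and 119 in full medium. The deficient libraries of RPS15 stood above all others. RPL22 (-0.29), RPL10 (-0.21), RPL14 (-0.11) and RPL13A (-0.09) were the lowest core genes and did not pass. With equal totals 17 members passed, while 11.6% of tested genes were positive and 10.9% negative, and with equal totals of protein-coding genes 12 did, 10 positive and 2 negative. Across the 69 tested core genes the interaction had a Spearman correlation of -0.44 with transcript length. Each comparison was also correlated with the share of G and C bases, the number of pseudogenes and the mean level. The value of -0.44 was the largest in absolute size of all these correlations. The next largest was 0.37, between the number of pseudogenes and the change in glutamine-only against deficient medium. These correlations are descriptions over genes that share the same 12 libraries, and genes are not independent replicates. The correlation with length rests on annotated lengths, which reached 7686 bases for RPL37.

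Of 7 tested paralogues, 4 rose between deficient and full medium (RPL22L1, RPS27L, RPL7L1 and RPL36AL) and 3 did not pass. RPL22L1, which can take the place of RPL22 in the ribosome, lies at chromosome 3, 170864875 to 170870195 on the minus strand. In libraries A, B and C, RPL22L1 stood at 29.8, 45.1 and 19.3 with both nutrients, 34.9, 21 and 18.8 with glucose alone, 28.9, 28.9 and 28.9 with glutamine alone and 59.9, 54.3 and 64.4 with neither. The deficient libraries lay above all others, which overlapped one another, and the change was 0.98 ± 0.24 (adjusted p = 0.0011). The ratio of RPL22L1 to RPL22 was 1.18, 1.29 and 1.20 in the deficient libraries A, B and C, and 0.303 to 0.707 in the other 9. The interaction of RPL22L1 was 1.31 ± 0.34 (adjusted p = 0.00445).

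RPL26L1 and RPL39L, the paralogues of RPL26 and RPL39, did not pass while their core genes rose. RPL26L1 was read at 18.5, 14.1 and 15.6 in the full libraries A, B and C, 7.23, 12.6 and 18.8 in glucose-only, 18.9, 16.4 and 13 in glutamine-only and 10.4, 12.1 and 8.54 in deficient medium. Its deficient libraries were below the full ones, with -0.59 ± 0.32 (adjusted p = 0.121), while RPL26 rose. RPL39L, known to be abundant in testis, gave 22.3 ± 9.70 in full, 10.8 ± 3.56 in glucose-only, 12.9 ± 7.22 in glutamine-only and 11 ± 2.05 in deficient medium, with overlapping groups and -0.86 ± 0.40 (adjusted p = 0.0678), and it passed with edgeR, with a pseudocount of 8 and without full library A or glutamine-only library B. RPL39 itself gave 336 ± 27.4 in full, 309.8 ± 27 in glucose-only, 473 ± 3.25 in glutamine-only and 571 ± 44.1 in deficient medium and rose by 0.77 ± 0.10 (adjusted p = 1.66e-07). Both paralogues rest on few reads, with no library above 29.4.

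RPS27L is the paralogue of RPS27 and a known target of p53. It gave 32 ± 8.58 in full, 33 ± 0.63 in glucose-only, 47.8 ± 8.44 in glutamine-only and 55.2 ± 12.5 in deficient medium, and RPS27 gave 601 ± 57.1 in full, 517 ± 25.2 in glucose-only, 805 ± 61.2 in glutamine-only and 952 ± 162 in deficient medium. The ratio was 0.058 ± 0.012 in deficient and 0.053 ± 0.0091 in full medium, and the genes rose by 0.77 ± 0.20 (adjusted p = 0.00184) and 0.65 ± 0.11 (adjusted p = 1.35e-05). RPL36AL, which encodes nearly the same protein as RPL36A, was read 10.9 to 12.2 times as often as RPL36A on average in each medium, with 0.53 ± 0.11 (adjusted p = 0.000171). Pseudogenes named after RPL36A summed to 55.7, more than RPL36A itself at 18.5 over all libraries. RPL7L1 is known as a nucleolar factor of large subunit assembly. Normalized counts of RPL7L1 in libraries A, B and C were 332, 277 and 324 in deficient, 220.1, 194 and 217 in glutamine-only, 204, 209.6 and 183 in glucose-only and 194, 194 and 199.98 in full medium. Its deficient libraries were above all others, which overlapped, with 0.66 ± 0.10 (adjusted p = 3.54e-06) against full medium. Glutamine-only against full gave 0.10 ± 0.10 (adjusted p = 0.537). RPSA2 gave 10.8 ± 2.06 in full, 9.07 ± 2.88 in glucose-only, 11.2 ± 2.95 in glutamine-only and 8.76 ± 3.30 in deficient medium and did not pass in any comparison.

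**Figure D4:**
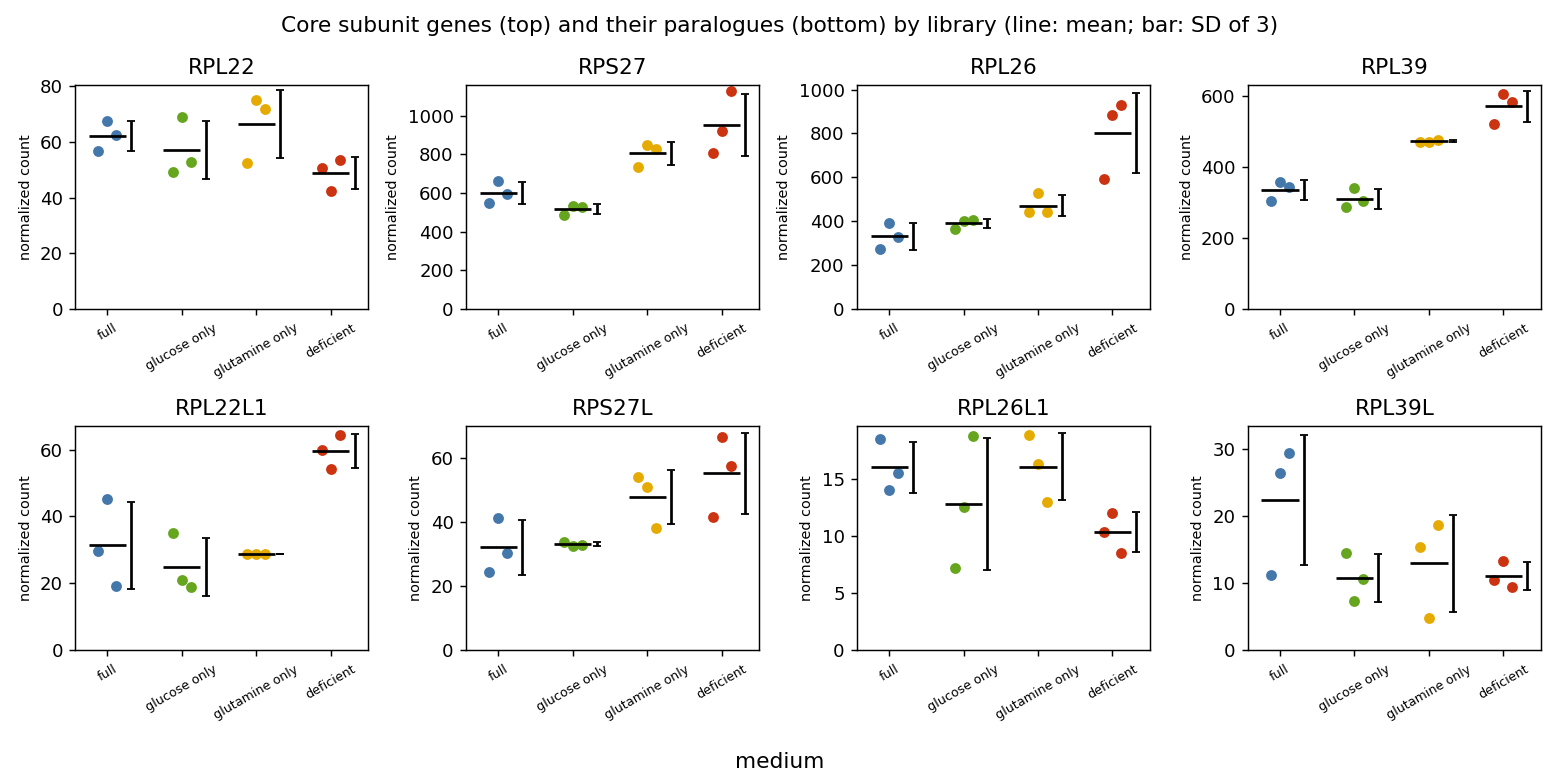
Normalized counts by library (points), with the mean as a line and the SD of 3 libraries as a bar, for 4 core genes in the upper panels and their paralogues in the lower panels, across the 4 media; each vertical axis starts at 0 and has its own scale. RPL22L1 lies between 54.3 and 64.4 in deficient medium and at most at 45.1 elsewhere, while RPL22 lies between 42.3 and 75.1 throughout.

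Per kilobase of transcript (mean normalized count over all libraries, divided by the length of the shortest principal transcript in GENCODE release 29), the core genes spanned 28.2 to 2348 with a median of 466. RPS29 (2348), RPS27 (2002), RPS21 (1462), RPS14 (1136), RPL39 (1053), RPLP2 (1001), RPL31 (995) and RPL26 (943) were highest. These are levels, not differences, and all 8 have transcripts of 296 to 825 bases. The order depends on the annotated lengths, which were long for some members. RPL37 and RPL27A, with 7686 and 4916 bases, came to 77.1 and 119 per kilobase, although their means were 593 and 583. Whether these lengths are those of the mRNAs in these cells was not tested. Of the 8, RPS29 and RPS21 did not pass between deficient and full medium, and RPL26 had the largest rise of the family.

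The 15 untested members included 8 core genes, among them RPS2, RPS3A, RPS9, RPS18, RPS25, RPL7A and RPL17. RPS25 was listed at 0 in every library. RPS18 had a mean of 0.185 over the libraries, while the pseudogenes named after it summed to 157 ± 25.5 in deficient, 116 ± 21.2 in glutamine-only, 101 ± 4.25 in glucose-only and 82.5 ± 9.13 in full medium. How reads that match several places were assigned is not given in the sources used here, so the level of a core gene with close copies is uncertain and no direction is read for these 8. RPS3A stood at 72.9 in deficient library A and at 1.55 or less in the other 11. RPS2 stood at 37.7, 14.5 and 8.54 in the deficient libraries, and at 1.20 to 8.26 elsewhere. The rest were RPL3L, RPL10L, the readthrough loci RPL17-C18orf32, RPL36A-HNRNPH2 and RPS10-NUDT3, and the Y-linked RPS4Y1 and RPS4Y2. The 1660 rows of pseudogenes named after members came to 4.61 to 4.88% of the members' own summed level on average in each medium. With each member summed with its pseudogenes 72 of 83 rose between deficient and full medium. The share of all tested genes on this setting was not determined, and 26.3% rose as deposited. The 83 include members such as RPS18, whose sum is almost all pseudogene reads, so the count gives no direction for those genes. Most of the tested core genes had few such reads, with a median of 2.83% of their own level, but RPL21, at 40.9, had 24.3 in its pseudogenes.

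Other parts of the ribosome and of the TOP pathway were read from lists chosen with earlier results known. Between deficient and full medium 26.3% of all tested genes rose and 25.5% fell, and with equal totals 12.6% rose and 40.7% fell. FAU and RACK1 rose between deficient and full medium, by 0.72 ± 0.11 (adjusted p = 1.85e-06) and 0.79 ± 0.10 (adjusted p = 7.12e-08). Of 16 tested mRNAs of elongation and initiation factors and others known for a TOP tract, 13 rose and none fell (median 0.75), and with equal totals 8 rose and 1 fell (median 0.36). EEF2, the translocation factor, rose most (1.26 ± 0.10, adjusted p = 3.56e-11), followed by EIF3H (0.98), EIF4B (0.98) and NPM1 (0.95), and EEF1A1 rose by 0.62. EEF2 gave 287 ± 32.7 in full, 407 ± 37.4 in glucose-only, 496 ± 14.2 in glutamine-only and 686 ± 67.4 in deficient medium. Against full medium the same list had 13 higher in glutamine-only and 2 higher in glucose-only medium, where 10.8% and 9.44% of all tested genes rose. With equal totals it had 4 higher and none lower in glutamine-only medium, against 6.79% and 14.7% of tested genes. In glucose-only medium it then had none higher and 3 lower, against 4.27% and 23.2%. Of its genes with a window, 11 of 12 had the pyrimidine run.

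Of 18 tested genes that act on TOP mRNAs, 7 rose and 4 fell between deficient and full medium (median -0.03), and with equal totals 4 rose and 7 fell, where all tested genes had 26.3% and 25.5%, and 12.6% and 40.7% with equal totals. LARP1, which binds the TOP tract, rose (0.72 ± 0.10, adjusted p = 3.91e-07), and its relative LARP1B did as well (2.27 ± 0.23, adjusted p = 1.86e-09). CNBP rose by 1.21. EIF4EBP2, a repressor of cap-dependent translation, fell (-2.38 ± 0.16, adjusted p = 2.69e-13), as did TIA1 (-0.99). Of 13 chaperones and import factors of ribosomal proteins, 7 rose and 2 fell, among them NACA (0.84), GRWD1, the chaperone of RPL3 (0.81), HEATR3, which imports RPL5 (-1.56), and IPO9 (-1.05). With equal totals 4 rose and 3 fell, against the same shares of all tested genes.

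Of 7 genes that respond to surplus ribosomal proteins or stalled ribosomes, 2 rose and 1 fell: CDKN1A (0.92), UBE2O (0.64) and HUWE1 (-0.49). PELO, at -0.46, did not pass. MDM2, named here after its value was seen because RPL5 and RPL11 bind it, was at -0.30 ± 0.16 (adjusted p = 0.123). With equal totals 1 rose and 5 fell, where 12.6% and 40.7% of all tested genes did (26.3% and 25.5% as deposited). Of 11 transcription factors of ribosomal protein genes, 5 rose and 1 fell, and with equal totals 2 rose and 3 fell, against the same shares. MYC rose most (2.84 ± 0.12, adjusted p = 1.35e-17), from 43.9 ± 5.36 in full to 319 ± 9.19 in deficient medium, with 86.8 ± 7.88 in glucose-only and 73.0 ± 2.98 in glutamine-only medium. MAX, its partner, rose by 0.94 and MXD4, its antagonist, fell by 1.30 on the log2 scale, while TBPL1, at 0.99, did not pass.

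Between deficient and full medium, the 50 tested members with a pyrimidine run had a median change of 0.70 with 46 higher. The 12 with a window but no run had a median of 0.54 with 9 higher, and 26.3% of all tested genes rose. Between glutamine-only and full medium the medians were 0.41 with 35 higher and 0.22 with 6 higher, against 10.8% of all tested genes. For the interaction the order was reversed, with medians of 0.33 with a run and 0.40 without. Of the 12 without a run 4 are paralogues, and the difference between the sets was not tested.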

How the data were processed

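RNA from 12 libraries of MDA-MB-231 cells, 3 in each of 4 media, was measured by stranded sequencing after depletion of ribosomal RNA, per the labels' protocols. Per the submitters' processing notes, the authors used FastQC, HISAT2, Subread and DESeq2 with GRCh38.p14; versions, settings and the annotation release are not given in the sources used here. The deposited signal values are gene-level reads divided by 1 size factor per library, as the values themselves show: every value came out as a whole number of reads within 0.01. The recovered reads served the count-based alternatives alone.

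The main test was limma-trend (limma 3.58.1, R 4.3.3) on log2(normalized count + 1) with 4 group means, over 9270 genes at 10 or more in at least 3 libraries. All p-values were two-sided and adjusted by Benjamini-Hochberg over those genes, with 0.05 as the threshold, and this method stands behind every adjusted p. The test was checked on simulated data in which few genes changed, up and down in near-equal number, with a fixed spread. In the data 51.8% of tested genes passed between deficient and full medium, so the check does not cover changes this broad. Alternatives were pseudocounts of 0.5 and 8, other filters, a threshold of 0.01, other scalings, the replicate letter as a block, DESeq2 1.42.0 and the quasi-likelihood test of edgeR 4.0.16 with TMM, both on recovered reads, each library left out, members summed with their pseudogenes, and core genes alone. Scaling on protein-coding totals and on the core genes was added after seeing the data.

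The members, the lists and the rule for naming genes were chosen with earlier results of these data known. Genes named are the 4 highest and 4 lowest core genes of each comparison, members called against the prevailing direction or not called where these are 8 or fewer, tested paralogues with their core genes, the stalk, RPL5, RPL11, RPS3, RPS6, RPS19, RPL3, RPL10, the 8 highest per length, untested members, and up to 4 genes of each other list with MYC, EEF1A1, EEF2, LARP1, FAU and RACK1. A few genes that the rule would name are not reported here. Gene positions and start sequences are from RefSeq (GRCh38.p14), transcript lengths from GENCODE release 29, which held 91 of the 92 members. Counting precision is limited by depths of 875033 to 1473587 reads.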

Additional observations from a re-analysis of the deposited data

Results flagged for a closer look

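The interaction of glucose and glutamine differed from 0 in 28 ribosomal protein genes, all positive, which means that the difference made by glucose was not the same with and without glutamine (limma, adjusted over all genes tested). Among the small subunit genes described above it was 0.77 for RPS10, 0.75 for RPS21, 0.51 for RPS29, 0.48 for RPS3 and 0.45 for RPS27 on the log2 scale. RPL11 of the 5S particle had 0.70 and RPL39 of the exit tunnel 0.38. Of the paralogues, RPL22L1 had 1.31 and RPL7L1 0.54. The ribosomal genes outside the name rule were close to these, with 0.47 for FAU and 0.45 for RACK1. With equal totals of all genes 17 members passed, all positive, while 11.6% of tested genes were positive and 10.9% negative. Under equal totals of protein-coding genes 12 members passed, not all of them positive, and RPS10 was not among them.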

How the results depend on the processing

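Between deficient and full medium 33 members passed under equal totals (30 higher and 3 lower), while 12.6% of all tested genes were higher and 40.7% lower. Apart from equal totals of all genes, no share of all tested genes was determined under the settings below, so those counts describe the members only. Against full medium, glucose-only gave 8 without a filter, 31 with equal totals, 5 with DESeq2, 6 at a threshold of 0.01 and 12 with equal protein-coding totals (7 higher and 5 lower). Glutamine-only against full gave 22 with equal totals. Glutamine-only against deficient gave 9 with equal totals (median 0.015, RPL39 0.013), 24 with DESeq2, 21 at 0.01 and 18 with protein-coding totals. The interaction gave 17 and 12 under those scalings, and the average glutamine effect 29 (median 0.16) and, at 0.01, 11. Leaving out single libraries gave 62 to 69 members for deficient against full, 6 to 17 for glucose-only and 33 to 52 for glutamine-only against full, 70 to 72 and 26 to 41 for these media against deficient, 43 to 53 between them, 23 to 34 for the interaction, 70 to 72 for glucose and 15 to 19 for glutamine. Without full library A the glucose-only median was -0.18 and the interaction median 0.40, and without full library B glucose-only against full passed 8 (5 higher, 3 lower). Apart from the scalings, the causes were not tested. Over all tested genes, deviations from the group means were hardly correlated between libraries sharing a letter (18 pairs, r from -0.029 to 0.067, none over 0.1). This does not exclude a pairing. The median of the tested core genes was lowest in library A in deficient, glutamine-only and full medium, but not in glucose-only medium. With the replicate block 70, 17, 54, 71, 42, 55, 33, 70 and 20 members passed in the order above. Depth limits the paralogues and the 15 untested members most.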

Other observations

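Many ribosomal protein genes carry small nucleolar RNAs (snoRNAs), guides of ribosomal RNA modification, in their introns. The table listed 63 pairs of a snoRNA and a member that holds it, over 29 members, and 12 of these snoRNAs were tested. SNORD58A, SNORD58B and SNORD58C, without a read, were listed under both RPL17 and its readthrough locus RPL17-C18orf32. Summed over all pairs, the normalized counts were 12476.71, 14163 and 9585 in the full libraries A, B and C and 16726, 15840.28 and 19738 in the glucose-only libraries. The glutamine-only libraries gave 14548, 13766 and 11234 and the deficient ones 18018, 20646 and 14964. The glucose-only libraries thus lay above the full ones, whereas the 77 tested members had a median change of -0.10 there. The snoRNA sum was not tested. Most of the listed snoRNAs had no read in any library. SNORA65 and SNORA3B had the largest values, with 5391 and 3779 in glucose-only library A.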
